A study of Mus musculus with 2 samples.

Results

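The genes described are the mouse genes whose symbols begin with Clec and a digit, the C-type lectin domain family, read in single liver cells. They were taken from the deposited gene list by symbol, leaving out Clec4f, Clec4g and pseudogenes, which gave 28 of 31053 genes. The study labels 2 samples of sorted liver immune cells from mice 8 weeks old, both with the strain label RedMUC298trTg: 1 labelled WT, the floxed control, and 1 labelled Rcrin KO, a liver conditional knockout. The labels used here name neither the Cre driver nor the number of animals. Each sample was profiled on the 10x Chromium, a droplet system in which each molecule receives a unique molecular identifier (UMI), and PCR copies of it count once. The 3 files of the WT sample matched the 3 of the KO sample in every byte, and all 11192 barcodes were shared. The files therefore held 1 matrix of unknown genotype, no comparison of WT with KO was made, and with 1 sample there is no replicate error, test or p-value. Rcrin itself was not analysed here.

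C-type lectins share a fold that in the classical members binds sugars with the help of calcium. Many of the family's surface receptors have lost calcium-dependent sugar binding and recognise proteins, lipids or dead cells instead. On myeloid cells some activate through the adaptor chains encoded by Fcer1g and Tyrobp, or through a hem-ITAM tail, and the kinase Syk. Others carry an inhibitory motif that recruits the phosphatases encoded by Ptpn6 and Ptpn11. In the liver, resident macrophages (Kupffer cells) and liver sinusoidal endothelial cells (LSEC) line the sinusoid and take up glycoproteins and particles from portal blood, partly through lectins.

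Barcode totals ran from 502 to 93990 UMI with a median of 4212.5. The 10366 barcodes kept had 500 or more UMI, 200 or more genes and no more than 10% of UMI from mitochondrial genes. A cell was put in a type when it had a UMI of at least 3 of that type's 8 marker genes and at least 2 more markers than of any other type. No Clec gene was a marker. The gates took 9204 cells (88.8%), and 12 types had at least 30 cells. They held 3041 B, 2166 T, 902 LSEC, 791 neutrophil, 747 NK/ILC1, 504 Kupffer, 310 classical monocyte, 286 nonclassical monocyte, 263 plasmacytoid dendritic cell (pDC), 64 plasma, 54 conventional type 1 dendritic cell (cDC1) and 34 basophil or mast cells. The label says immune cells, yet the LSEC gate, an endothelial type, was the third largest. Clec4f and Clec4g, which were neither members nor markers, checked the sinusoidal gates. Clec4f was at 4592 UMI per 1000000 UMI (CPM) in the Kupffer gate and 98.2 CPM in the LSEC gate, and Clec4g at 2821 CPM in the LSEC gate and 21.7 CPM in the Kupffer gate. The 1162 ungated cells included 198 with at least 3 Kupffer and at least 3 LSEC markers. Kupffer-gated cells were deep (median 13019.5 UMI against 2589 in neutrophil-gated cells) and carried a median of 4 markers of the next type, so shares of cells are also given with each cell thinned to 1000 UMI.

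Intervals are 95% limits, exact Poisson for CPM, Clopper-Pearson for shares and exact conditional for ratios. They cover counting error only, not variation between animals or between cells. CPM is a level per molecule and was not divided by gene length. Genes are therefore set against each other only as a UMI ratio within one cell type beside the same ratio in another.

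Most of the measured members were higher in myeloid than in lymphoid cells. Of the 28 genes, 27 had a UMI, 8 of them with 1 to 29 UMI in all, and 19 had at least 30. Among those 19, 13 (68.4%) were at least 4-fold higher in the mean of 7 myeloid gates than in the mean of 4 lymphoid gates. The share was 11.7% over all 13764 genes with as many UMI that were not gate markers. Gates had equal weight. The myeloid ones were neutrophil, classical and nonclassical monocyte, Kupffer, cDC1, basophil or mast and a Cd209a dendritic gate of only 12 cells. The lymphoid ones were B, plasma, T and NK/ILC1, and pDC and LSEC were in neither mean. The 13 thus include Clec1a, highest in LSEC (154 CPM, myeloid mean 5.90 CPM), and Clec10a, highest in pDC (203 CPM, myeloid mean 11.7 CPM). At least 4-fold higher in the lymphoid mean was 1 gene, Clec2g (5.26%, against 10.3% of all genes). Its lymphoid mean came mainly from the plasma gate. With at most 20000 UMI per barcode, Clec2g was at 14.2 CPM in plasma, 1.72 CPM in B and 0 CPM in T and NK/ILC1 cells. The 5 genes with neither difference were Clec2i, Clec2d, Clec11a, Clec14a and Clec16a. The highest gate was Kupffer for 4 of the 19 genes (9.11% of all genes), LSEC for 4 (23.1%), neutrophil for 3 (6.12%), pDC for 3 (8.86%) and nonclassical monocyte for 2 (4.34%). It was classical monocyte (3.40%), cDC1 (6.91%) or plasma (6.64%) for 1 each. None of the 19 was highest in B, T, NK/ILC1 or basophil or mast cells, which together were highest for 31.5% of all genes. Clec2i in pDC was, however, not separated from B cells. B cells were the higher with at most 5% mitochondrial UMI (log2 ratio of pDC over B -0.40) or with CPM totals that left out haemoglobin, mitochondrial and ribosomal protein genes (-0.03). The 5% limit left only 554 of 3041 B cells and 55 of 263 pDC.

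**Figure D1:**
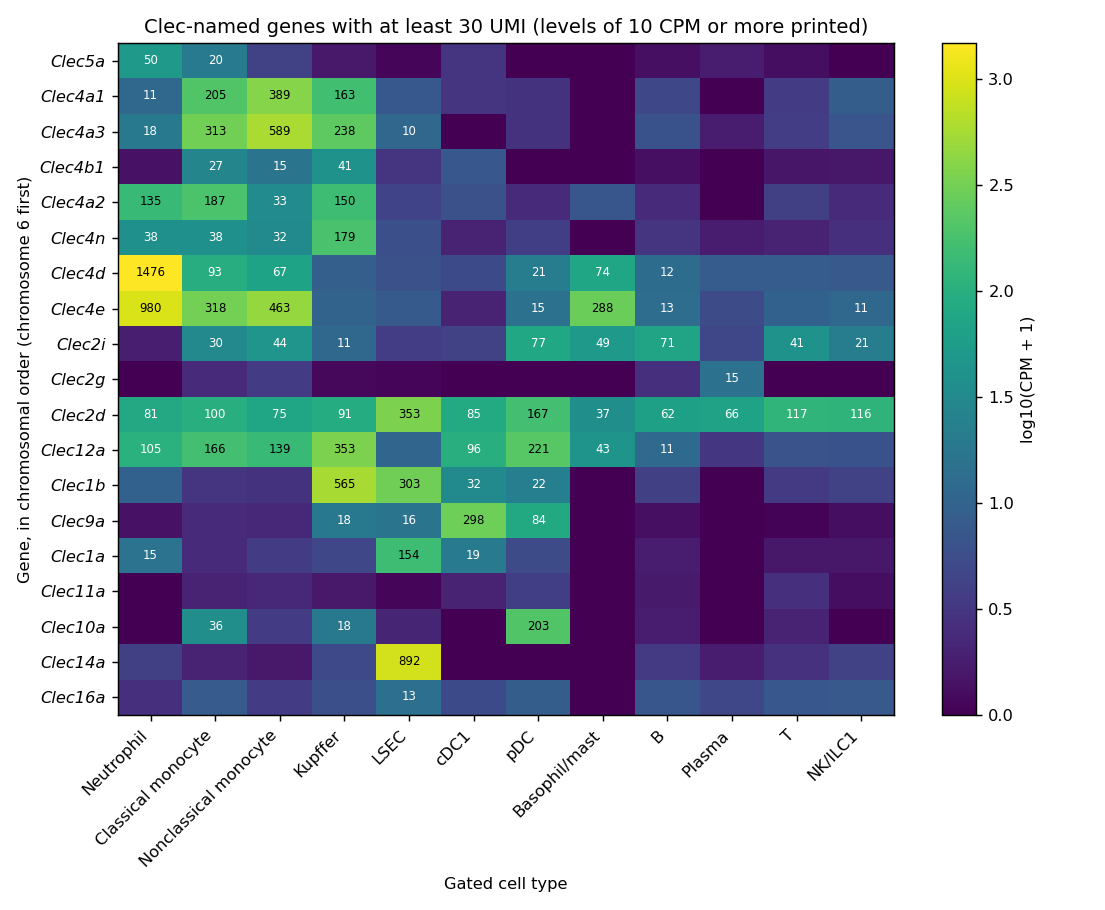
Level of the 19 Clec-named genes with at least 30 UMI (rows, in chromosomal order) in the 12 gated cell types with at least 30 cells (columns), as log10(CPM + 1), with levels of 10 CPM or more printed. Clec4d and Clec4e stand at 1476 and 980 CPM in neutrophil-gated cells, Clec14a at 892 CPM in LSEC-gated cells, and Clec2d is at 10 CPM or more in 12 of 12 types.

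Restriction to a single cell type was taken as a level at least 4-fold over the next type. It held for 6 of 19 genes (31.6%), against 12.3% of all genes tested. These were Clec4d (neutrophil), Clec4n (Kupffer), Clec1a and Clec14a (LSEC), Clec10a (pDC) and Clec2g (plasma). The median ratio of the highest to the next type was 2.12 for the 19 genes and 1.35 over all genes. With gates that allowed at most 1 marker of any other type, 3 genes were restricted. Clec10a and Clec2g lost their highest type, since the pDC and plasma gates fell to 13 and 2 cells, below the 30 needed, as did cDC1 (5 cells) and basophil or mast cells (22). Clec4n was lost on its ratio between gates that were still ranked.

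Summed over the 28 genes, the share of UMI from these lectins was highest in neutrophil-gated cells, at 2927 CPM (2858 to 2997). Nonclassical monocytes (1864 CPM), Kupffer cells (1859 CPM), LSEC (1785 CPM) and classical monocytes (1548 CPM) followed. Then came pDC at 833 CPM, cDC1 at 563 CPM and basophil or mast cells at 496 CPM. T, B and NK/ILC1 cells were at 205, 198 and 192 CPM, and plasma cells at 105 CPM. These are shares of UMI, not numbers per cell. The counts were 6801 UMI in 791 neutrophil-gated cells and 11135 UMI in 504 Kupffer cells. Clec4f, at 4592 CPM in Kupffer cells, and Clec4g, at 2821 CPM in LSEC, are outside the sum. The make-up differed more than the sums. In neutrophil-gated cells Clec4d and Clec4e gave 50.4% and 33.5% of the family's UMI. In LSEC Clec14a gave 49.98%, and in Kupffer cells Clec1b gave 30.4%. In cDC1 Clec9a gave 52.9%, whereas in classical monocytes the 3 leading genes together gave 54.0% and 12 genes stood at 10 CPM or more, the widest repertoire of the 12 types. A classical monocyte-gated cell had UMI of 5.76 different members on average and a Kupffer-gated cell of 5.88. Thinned to 1000 UMI the averages were 1.37 and 1.52, and that of neutrophil-gated cells was 1.70.

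**Figure D2:**
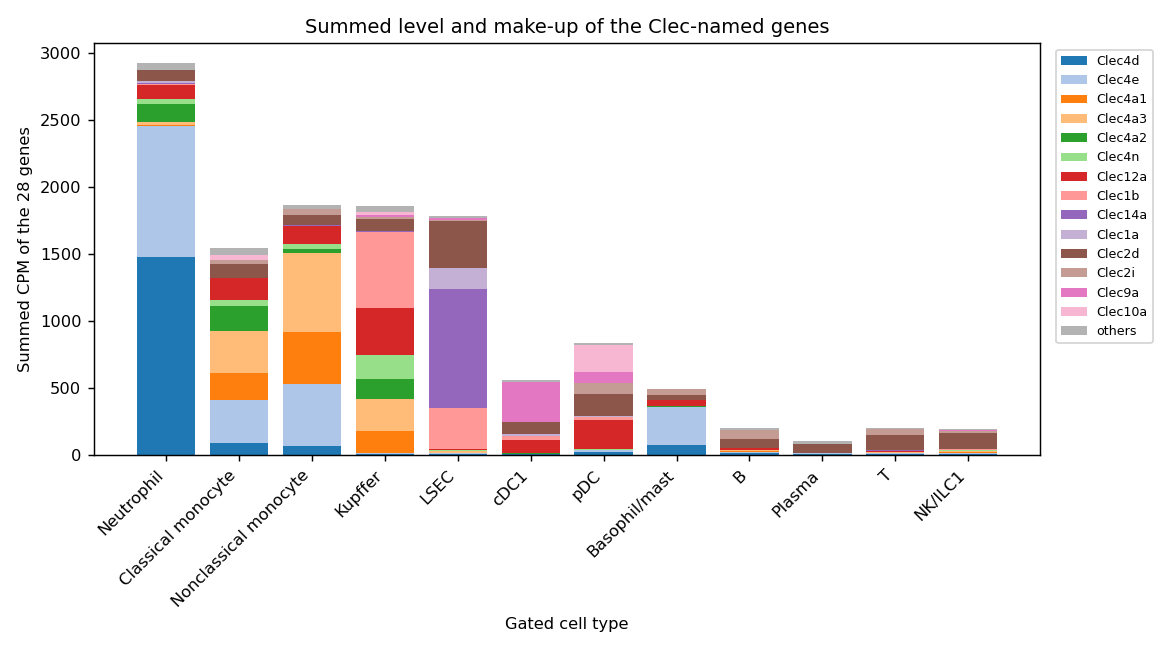
Summed CPM of the 28 Clec-named genes in each of the 12 gated cell types (bar height), divided by gene (colours; grey holds the genes not named in the key). Neutrophil-gated cells reach 2927 CPM, mostly Clec4d and Clec4e, and plasma cells 105 CPM.

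Clec4d and Clec4e were the neutrophil pair. Clec4d (MCL; ENSMUSG00000030144, chr6:123262111-123275265, + strand, GRCm38) and Clec4e (Mincle; ENSMUSG00000030142, chr6:123281789-123289870, - strand) encode receptors for mycobacterial cord factor that signal through the Fcer1g chain. They are neighbours pointing towards each other, 6.524 kb apart. Their promoters are shown because the genes shared a highest cell type but differed in how far other myeloid cells carried them. Each sequence is the RefSeq promoter of build GRCm38.p6, 250 bases before and 50 after the start, 5′ to 3′ on the gene's own strand. Capitals mark a match to TTGCNNAA, a C/EBP-type motif, on either strand.
Clec4d, chr6:123261857-123262156, + strand: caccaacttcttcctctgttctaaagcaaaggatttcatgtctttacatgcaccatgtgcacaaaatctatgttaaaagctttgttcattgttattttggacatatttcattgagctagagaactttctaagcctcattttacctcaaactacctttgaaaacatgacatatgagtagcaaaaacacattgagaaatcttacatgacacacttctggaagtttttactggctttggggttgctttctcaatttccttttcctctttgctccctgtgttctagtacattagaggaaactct
Clec4e, chr6:123289822-123290121, - strand: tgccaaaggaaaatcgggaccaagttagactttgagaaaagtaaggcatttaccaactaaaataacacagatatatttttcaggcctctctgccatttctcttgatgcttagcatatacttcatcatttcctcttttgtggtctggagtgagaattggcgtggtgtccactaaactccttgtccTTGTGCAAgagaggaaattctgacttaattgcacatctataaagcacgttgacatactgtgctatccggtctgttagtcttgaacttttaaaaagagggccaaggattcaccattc
The Clec4e window held 1 match, 66 bases before the start, and the Clec4d window none. Matches to TTGCNNAA were found in 10.8% of 32851 promoters of this length and in 6 of the 24 promoters of members in the table. The 6 include both windows of Clec2i, which overlap and hold the same match. Other motifs were also scanned in the 24. An AP-1-type motif was in 6 (7.81% of all promoters), an ERG-type in 4 (8.67%) and a PU.1-type in 1 (9.35%). Counted with shifts between the windows allowed, identical bases made up 51.7% of the pair, close to the median of 49.7% over 274 pairs of member promoters.

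In neutrophil-gated cells Clec4d stood at 1476 CPM (1427 to 1526). Classical monocytes had 92.7 CPM, basophil or mast cells 73.5 CPM (38.0 to 128), nonclassical monocytes 67.3 CPM, pDC 20.8 CPM and B cells 12.3 CPM. The ratio of the highest to the next type was 15.9 (14.0 to 18.1). A UMI of Clec4d was found in 93.7% of neutrophil-gated cells (91.8 to 95.3; 75.4% thinned), at a median depth of 2589 UMI. In B-gated cells, at a median of 3263 UMI, the share was 2.04%. Clec4e spread further over the myeloid types. It was at 979.9 CPM (940.1 to 1021) in neutrophil-gated cells, 463 CPM (429.5 to 498) in nonclassical monocytes, 318 CPM in classical monocytes, 288 CPM (212 to 383) in basophil or mast cells and 12.6 CPM in B cells. The ratio of the highest to the next type was 2.12 (1.95 to 2.31). Shares of cells with a UMI of Clec4e were 82.2% of neutrophil-gated, 77.1% of classical monocyte, 64.0% of nonclassical monocyte, 50% of basophil or mast and 1.81% of B-gated cells.

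The balance of the pair differed between cell types. The UMI ratio of Clec4d to Clec4e was 1.51 (1.43 to 1.59) in neutrophil-gated cells, 0.292 (0.253 to 0.335) in classical monocytes and 0.145 (0.117 to 0.179) in nonclassical monocytes. In B cells, whose levels of both were near 12 CPM, it was 0.979 (0.768 to 1.25). S100a9, the gene of a calcium-binding protein abundant in neutrophils, was used to measure neutrophil RNA in other gates. Its level in basophil or mast cells was 0.000787 of that in neutrophil-gated cells, while that of Clec4e was 0.294 and that of Clec4d 0.0498. In B cells the fractions were 0.00313 for S100a9 and 0.00835 for Clec4d. Within neutrophil-gated cells thinned to 1000 UMI, Clec4e was found in 57.2% of cells with Clec4d and in 46.4% of cells without it.

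Clec5a (MDL-1; chr6:40574894-40585821, - strand), a Tyrobp-coupled receptor that lies far from the other myeloid lectins on the same chromosome, was lower and had a narrower range. It was at 49.9 CPM (41.3 to 59.9) in neutrophil-gated cells, 19.7 CPM in classical monocytes and 3.20 CPM in nonclassical monocytes, with 0.668 CPM in Kupffer cells and 0.357 CPM in B cells. The ratio of the first to the second was 2.53 (1.82 to 3.54).

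The neutrophil gate held cells at different stages, and the lectins differed between them. Camp and Ltf encode granule proteins made before neutrophils are fully mature. Both were found in 44 cells (median 7115.5 UMI) and neither in 723 (median 2536 UMI). Clec4d was at 189 CPM in cells with both and 1697 CPM in cells with neither, a ratio of 0.111 (0.0844 to 0.144). Clec4e differed less, with 476 and 1065 CPM and a ratio of 0.447 (0.375 to 0.529). Clec4a2 and Clec12a, picked out after the ratios were seen, ran the other way. Clec4a2, which encodes the inhibitory receptor DCIR, was at 303 CPM in cells with both granule genes and 101 CPM in cells with neither (ratio 3.01, 2.33 to 3.88). Clec12a, encoding an inhibitory receptor for uric acid crystals, was at 287 and 77.7 CPM (ratio 3.69, 2.80 to 4.84). Clec5a had a ratio of 1.64 with an interval that includes 1 (0.975 to 2.64). Clec2d gave 1 UMI in the cells with both and 177 UMI in the others. Clec4n and Clec1a gave no UMI in the cells with both, so their levels in the other cells, 45.9 and 18.2 CPM, were at least 4.69-fold and 1.87-fold higher than 3 counts over that group would give. Counting differences of at least 2-fold, 2 of 9 members were higher with Camp and Ltf (10.0% of 4497 genes) and 6 of 9 higher with neither (28.9%). The 6 were Clec4d, Clec4e, Clec4a3, Clec4n, Clec2d and Clec1a. Clec1a counts on its fitted level of 0, and its bound of 1.87-fold does not pass. Clec4a3, with 1 and 41 UMI, had a ratio of 0.152 (0.00377 to 0.898). Splitting on Ltf alone gave a log2 ratio of -2.57 for Clec4d in place of -3.17.

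**Figure D3:**
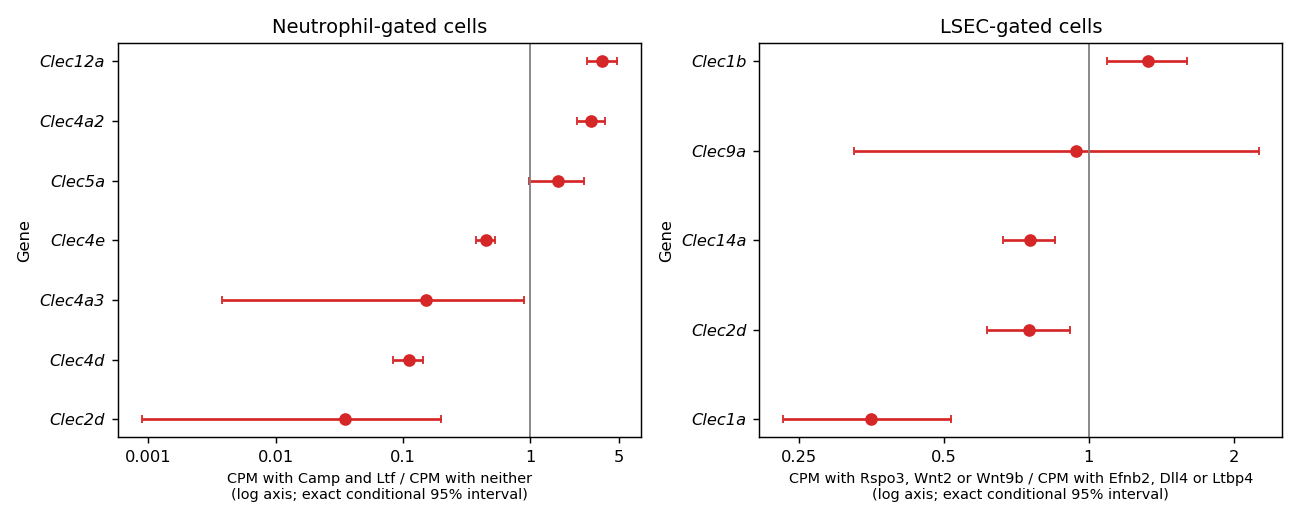
Ratio of CPM between subsets of neutrophil-gated cells (left, cells with Camp and Ltf over cells with neither) and of LSEC-gated cells (right, cells with Rspo3, Wnt2 or Wnt9b over cells with Efnb2, Dll4 or Ltbp4), on log axes with exact conditional 95% intervals; members with no UMI in the first subset are not drawn. Clec4d lies at 0.111 and Clec4a2 and Clec12a at 3.01 and 3.69 on the left, and Clec1a at 0.353 and Clec1b at 1.32 on the right.

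Clec4a1 and Clec4a3, DCIR relatives, had nearly the same ratio to each other in the 3 types where both were high. Clec4a1 (DCIR4; ENSMUSG00000049037, chr6:122921848-122934619, + strand) lies 17.9 kb before Clec4a3 (DCIR3; ENSMUSG00000043832, chr6:122952515-122969875, + strand). Clec4a1 was at 389 CPM (359 to 421) in nonclassical monocytes, 205 CPM in classical monocytes, 163 CPM in Kupffer cells and 3.84 CPM in B cells. Clec4a3 was at 589 CPM (551 to 628), 313, 238 and 5.36 CPM in the same types. The UMI ratio of Clec4a3 to Clec4a1 was 1.51 (1.37 to 1.68) in nonclassical monocytes, 1.53 (1.37 to 1.70) in classical monocytes and 1.46 (1.35 to 1.59) in Kupffer cells. In types with low levels of both it ran from 1.68 (1.0004 to 2.88) in neutrophil-gated cells, 1.59 (1.08 to 2.35) in LSEC and 1.40 (0.928 to 2.11) in B cells to 1.06 (0.644 to 1.74) in T and 0.769 (0.407 to 1.43) in NK/ILC1 cells. The NK/ILC1 value rests on 20 and 26 UMI. The annotated transcripts of the pair share no exact run of 50 bases. Exchange of reads between them with mismatches was not tested. The promoters of the pair are shown because of this ratio in the 3 high types. Capitals mark the longest run of letters that the pair has in common.
Clec4a1, chr6:122921598-122921897, + strand: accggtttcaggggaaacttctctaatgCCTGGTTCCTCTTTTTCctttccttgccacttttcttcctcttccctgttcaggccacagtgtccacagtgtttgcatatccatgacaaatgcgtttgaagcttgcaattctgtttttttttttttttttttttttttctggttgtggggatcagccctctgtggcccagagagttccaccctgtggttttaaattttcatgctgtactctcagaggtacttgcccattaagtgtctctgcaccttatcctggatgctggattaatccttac
Clec4a3 (1 of 2 starts in the table), chr6:122952394-122952693, + strand: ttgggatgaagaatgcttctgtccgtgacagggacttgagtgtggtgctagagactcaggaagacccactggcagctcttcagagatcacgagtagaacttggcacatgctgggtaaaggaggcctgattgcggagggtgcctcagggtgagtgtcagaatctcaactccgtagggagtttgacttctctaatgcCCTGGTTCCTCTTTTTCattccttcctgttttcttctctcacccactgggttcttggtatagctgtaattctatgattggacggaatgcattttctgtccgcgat
The shared run is 17 bases long and lies 222 bases before the Clec4a1 start and 55 bases before the Clec4a3 start. The other Clec4a3 start in the table shares a run of 8 bases with Clec4a1, and 8 was also the median longest run over 274 pairs of member promoters. Counted with shifts between the windows allowed, identical bases made up 50.3% of the pair, near the median of 49.7%. The pair with the longest run was Clec2e and Clec2h, at 121 bases and 84% identity, and these genes had 1 and 2 UMI.

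Clec4a2 (DCIR; ENSMUSG00000030148, chr6:123106428-123143999, + strand) lies in the same run of genes and followed another order. It was at 187 CPM (172 to 204) in classical monocytes, 150.3 CPM in Kupffer cells, 135 CPM in neutrophil-gated cells and 32.7 CPM in nonclassical monocytes. Kupffer cells and neutrophil-gated cells were not separated (ratio 1.11, 0.977 to 1.27). The UMI ratio of Clec4a2 to Clec4a3 was 7.48 (5.41 to 10.6) in neutrophil-gated cells, 0.598 in classical monocytes, 0.631 in Kupffer cells and 0.0555 (0.0410 to 0.0736) in nonclassical monocytes. Nonclassical monocytes were thus high in Clec4a1 and Clec4a3 and low in Clec4a2. Clec4a2 shares 50-base runs with Clec4a4 (15.7% of the runs of Clec4a4) and Clec4b1 (8.68% of those of Clec4b1), so reads in these stretches are uncertain between the genes.

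Clec4b1 and Clec4n were highest in Kupffer-gated cells. Clec4b1, which encodes a receptor coupled to the Fcer1g chain, was at 40.7 CPM (35.8 to 46.2) there, 26.8 CPM in classical monocytes and 15.4 CPM in nonclassical monocytes, with a ratio of 1.52 (1.17 to 1.99) for the first over the second. Clec4n (Dectin-2; ENSMUSG00000023349, chr6:123229843-123247021, + strand), an Fcer1g-coupled receptor for fungal mannans, was at 179 CPM (169 to 190.4) in Kupffer cells. Neutrophil-gated cells had 38.3 CPM, classical monocytes 37.7 CPM, nonclassical monocytes 32.0 CPM and B cells 2.05 CPM. The ratio of the highest to the next was 4.68 (3.77 to 5.88), just above the 4-fold line, and 66.7% of Kupffer-gated cells had a UMI (17.5% thinned). The lower 3 types were not separated by their intervals. With gates that allowed at most 1 marker of any other type the Kupffer level was 175 CPM (20 UMI) and the neutrophil level 47.9 CPM (81 UMI). The log2 ratio was then 1.87, below that line.

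Clec12a (ENSMUSG00000053063, chr6:129342691-129365303, + strand) had the broadest myeloid and dendritic range of the inhibitory receptors. It was at 353 CPM (338 to 368) in Kupffer cells, 221 CPM in pDC, 166 CPM in classical monocytes, 139 CPM in nonclassical monocytes, 105 CPM in neutrophil-gated cells, 95.9 CPM in cDC1 and 42.9 CPM in basophil or mast cells. B cells had 11.2 CPM (3.26% of cells) and LSEC 9.72 CPM. The Kupffer level was 1.59 times that of pDC (1.44 to 1.77), and the pDC level 1.33 times that of classical monocytes (1.17 to 1.52). With gates that allowed at most 1 marker of any other type, Kupffer cells were at 245 CPM, from 28 UMI in 84 cells.

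Clec1b was shared between both sinusoidal cell types. The gene (CLEC-2; ENSMUSG00000030159, chr6:129397297-129409335, + strand) encodes the hem-ITAM receptor for podoplanin that is best known on platelets. It was at 565 CPM (546 to 584) in Kupffer cells, with a UMI in 87.1% of cells (40.3% thinned), and at 303 CPM (291 to 316) in LSEC, with a UMI in 78.7% (24.8% thinned). The next types were cDC1 at 32.0 CPM and pDC at 22.2 CPM, and B cells had 2.95 CPM (1.09% of cells). The LSEC level was 0.537 of the Kupffer level (0.509 to 0.567), whereas for Clec4f that fraction was 0.0214 (0.0198 to 0.0230). The UMI ratio of Clec1b to Clec4f was 0.123 (0.119 to 0.127) in Kupffer cells. In lymphoid cells, where both were low, it was 0.109 (0.0736 to 0.156) in B, 0.117 (0.0779 to 0.170) in T and 0.118 (0.0571 to 0.222) in NK/ILC1 cells. It was 0.0857 (0.0169 to 0.272) in nonclassical monocytes, 0.207 (0.0702 to 0.507) in classical monocytes and 0.253 (0.147 to 0.418) in neutrophil-gated cells. It was 2.14 (1.26 to 3.72) in pDC, 2.58 (1.29 to 5.52) in cDC1 and 3.09 (2.84 to 3.37) in LSEC. With at most 20000 UMI per barcode, which took 21 of 902 cells from the LSEC gate, the LSEC ratio was 5.91 and the fraction for Clec4f 0.0114. With gates that allowed at most 1 marker of any other type, Clec1b was at 684 CPM in 84 Kupffer cells and 283 CPM in 228 LSEC. The Kupffer level then rested on 78 UMI of Clec1b, against 3382 UMI in the 504 cells of the main gate. Its ratio to Clec4f in LSEC was then 11.8, from 355 and 30 UMI, and the fraction for Clec4f 0.00658.

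Platelets were a further source of Clec1b transcripts to measure. The platelet or megakaryocyte gate held 8 cells, too few to rank, and each had between 1 and 12 UMI of Clec1b. The 7 cells below 10000 UMI gave 39 UMI of Clec1b among 14254 UMI, a level of 2736 CPM (1946 to 3740). The eighth, with 93990 UMI, was at 53.2 CPM. In those 7 cells there were 0.361 UMI of Clec1b per UMI of the platelet gene Pf4. The figure was 11.1 in Kupffer cells and 22.7 in LSEC, and the platelet gene Gp9 had no UMI in either gate. Pf4 and Gp9 were both markers of the platelet gate, so its cells were picked partly for having them. The part of platelet RNA in the Kupffer and LSEC levels was not tested.

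LSEC carried a distinct set headed by Clec14a. Clec14a (ENSMUSG00000045930, chr12:58264720-58269290, - strand) encodes an endothelial adhesion and angiogenesis receptor whose ligand is multimerin 2. It was at 892 CPM (870.4 to 914) in LSEC, with a UMI in 95.3% of cells (53.4% thinned). The next type was Kupffer cells at 4.01 CPM, and the ratio of 223 (149 to 348) was the largest in the family. B cells were at 2.41 CPM (0.822% of cells), and cDC1, pDC and basophil or mast cells had no UMI. Mmrn2, which encodes that ligand, was itself at 562 CPM in LSEC and at 2.06 CPM in the next type. Clec1a (ENSMUSG00000033082, chr6:129424772-129452000, - strand), an endothelial and dendritic receptor for a fungal spore pigment, was at 154 CPM (145 to 163) in LSEC, 18.6 CPM in cDC1 and 15.1 CPM in neutrophil-gated cells. The ratio of the first over the second was 8.29 (5.22 to 14.0).

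Clec2d was the one member found at 10 CPM or more in 12 of 12 types. Its protein, Clr-b, is the ligand of the inhibitory NK receptor encoded by Klrb1b and is borne by most blood cells. LSEC had the highest level at 353 CPM (339 to 367), 2.12 times that of pDC (167 CPM; ratio 1.89 to 2.37). The other types ran from 117 CPM in T cells to 36.8 CPM in basophil or mast cells. NK/ILC1 cells and T cells were not separated (ratio 0.990, 0.884 to 1.11), and T cells were 1.87 times B cells (1.71 to 2.05).

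Several lectins differed between LSEC-gated cells split by genes of the central and portal sides, while position in the sinusoid was not measured. LSEC-gated cells with a UMI of Rspo3, Wnt2 or Wnt9b, genes of endothelium near the central vein, numbered 69 (median 5379 UMI). Those with Efnb2, Dll4 or Ltbp4, genes of the arterial and portal side, numbered 314 (median 6607 UMI), and cells with both kinds were left out. Clec1a was at 73.9 CPM in the first and 209 CPM in the second (ratio 0.353, 0.232 to 0.517). Clec14a was at 754 and 1001 CPM (0.753, 0.664 to 0.853), and Clec2d at 309 and 410.1 CPM (0.753, 0.615 to 0.913). Clec1b was the exception, at 353.5 and 267 CPM (1.32, 1.09 to 1.60), while the ratio of Clec9a, 0.942, had an interval including 1 (0.325 to 2.25). At least 2-fold higher in the first subset were 0 of 5 members (2.59% of 7988 genes) and in the second 1 of 5, Clec1a (5.80%).

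The dendritic gates differed in Clec9a and Clec10a. Clec9a (DNGR-1; ENSMUSG00000046080, chr6:129408862-129424763, + strand), a receptor for actin exposed by dead cells, was at 298 CPM (265 to 335) in cDC1, with a UMI in 87.0% of 54 cells (27.8% thinned). It was at 83.8 CPM in pDC (39.9% of cells), 18.0 CPM in Kupffer cells, 15.6 CPM in LSEC and 0.357 CPM in B cells. The cDC1 level was 3.56 times that of pDC (2.94 to 4.32). In the annotation Clec9a starts 473 bases inside the end of Clec1b on the same strand, and the transcripts share 136 runs of 50 bases. Reads there are uncertain between the genes, and Kupffer cells and LSEC are the high gates of Clec1b. The UMI ratio of Clec9a to Clec1b was 0.0319 (0.0261 to 0.0387) in Kupffer cells and 0.0513 (0.0420 to 0.0621) in LSEC, against 3.77 in pDC and 9.32 in cDC1. Xcr1, a cDC1 gate marker, was at 512 CPM in cDC1, 1.67 CPM in Kupffer cells and 0.139 CPM in LSEC. The cDC1 cells were picked partly for having Xcr1, and other cDC1 markers were found outside that gate. Kupffer-gated cells had UMI of 2.32 cDC1 markers on average, and LSEC-gated cells of 0.411. The part of cDC1 RNA in the Clec9a levels of Kupffer cells and LSEC was not tested.

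Clec10a (MGL1; ENSMUSG00000000318, chr11:70156197-70170834, + strand), a calcium-dependent receptor for terminal galactose and N-acetylgalactosamine, was at 203 CPM (184 to 223) in pDC, with a UMI in 71.9% of cells (18.4% thinned). Classical monocytes had 35.6 CPM, Kupffer cells 18.2 CPM and B cells 0.803 CPM, and the ratio of the first to the second was 5.70 (4.58 to 7.15). No UMI of Clec10a was found in 54 cDC1, where 3 counts would be 3.09 CPM. pDC-gated cells had UMI of 1.94 of the 8 markers of the Cd209a dendritic gate on average, and cDC1 of 2.33. In the 12 cells of the Cd209a gate itself, with at most 20000 UMI per barcode, Clec10a was at 25.6 CPM from 3 UMI. The part of such cells in the pDC level was not tested.

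**Figure D4:**
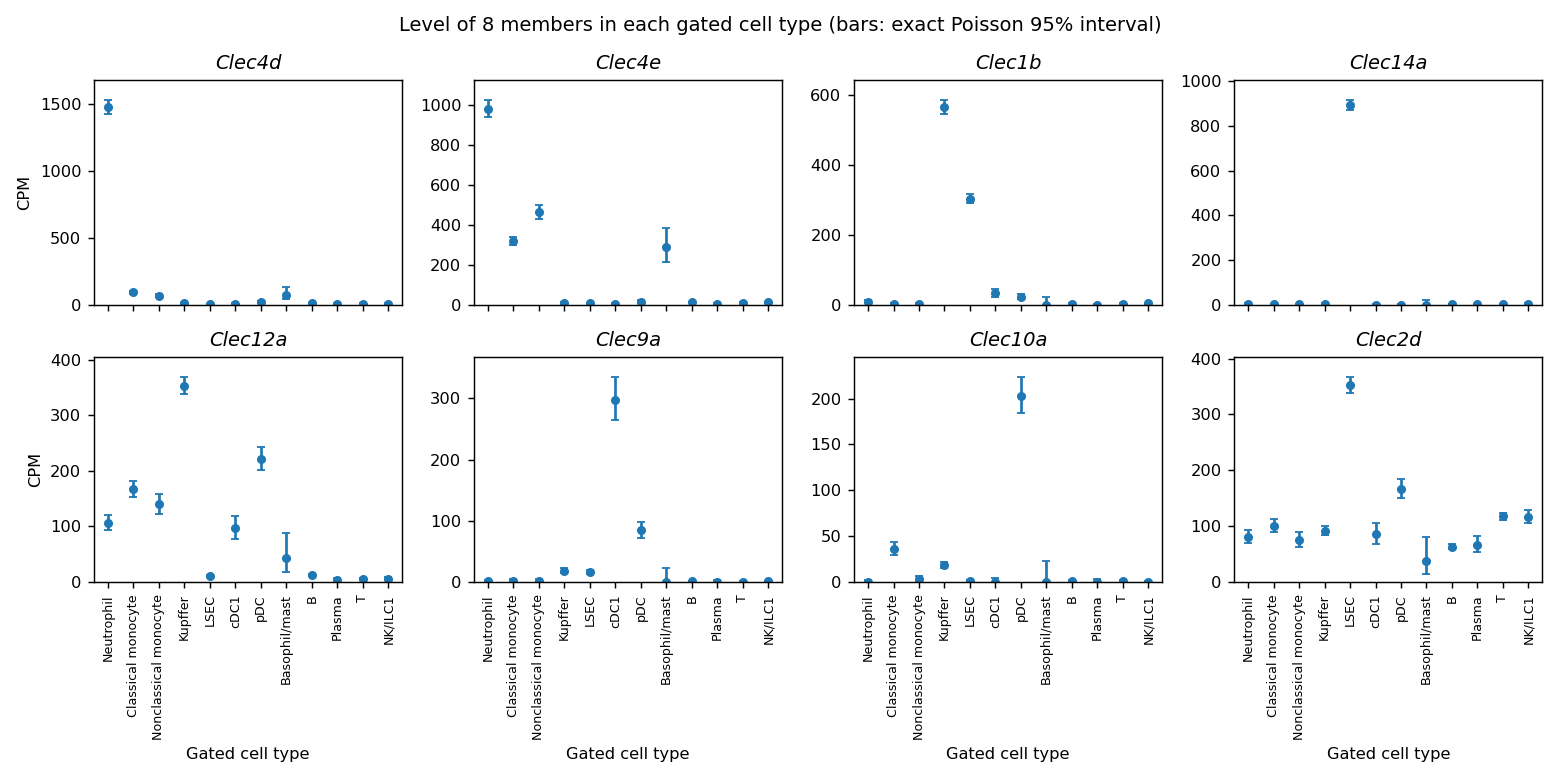
Level (CPM, linear axes with their own scale in each panel) of 8 members in the 12 gated cell types; points are levels and bars exact Poisson 95% intervals. Clec4d has 1 high type (1476 CPM in neutrophil-gated cells) and Clec1b has Kupffer cells and LSEC at 565 and 303 CPM, while Clec2d is spread over 12 types from 36.8 to 353 CPM.

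Proteins of the Clec2 genes are ligands of receptors encoded by the Klrb1 genes of NK cells. Clec2i (Clr-g; ENSMUSG00000030365, chr6:128887588-128898167, + strand), a ligand of the receptor encoded by Klrb1f, was at 76.7 CPM in pDC and 70.5 CPM in B cells, which were not separated (ratio 1.09, 0.912 to 1.29). Basophil or mast cells had 49.0 CPM, nonclassical monocytes 43.6 CPM, T cells 40.6 CPM and NK/ILC1 cells 20.6 CPM. B cells were 1.74 times T cells (1.55 to 1.94) and T cells 1.97 times NK/ILC1 cells (1.54 to 2.57). Clec2i was the leading member of B cells with 35.5% of the family's UMI, and Clec2d that of T cells with 57.1%. Neutrophil-gated cells had 0.861 CPM of Clec2i. The receptor genes were NK/ILC1 genes. Klrb1b was at 244 CPM, Klrb1a at 138 CPM and Klrb1f at 136 CPM in NK/ILC1 cells, each at least 5.36-fold over the next type.

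Both ligands were also compared between subsets of lymphocytes. Clec2d was at 134 CPM in 453 T-gated cells with Cd4 and no Cd8a or Cd8b1, and at 105 CPM in 698 cells with the reverse (ratio 1.28, 1.11 to 1.47). Clec2i was at 37.1 and 36.9 CPM. None of 5 members differed by 2-fold between them, against 3.54% and 2.92% of 9149 genes in the respective directions. In NK/ILC1 cells Clec2i was at 17.3 CPM in 376 cells with Eomes and no Cxcr6 and at 35.1 CPM in 84 cells with the reverse, a ratio of 0.493 whose interval includes 1 (0.254 to 1.002). That was 1 of 3 members past 2-fold in this direction (5.41% of 6744 genes), and 0 of 3 were past it in the other (9.19%). Clec2g (chr6:128934381-128984707, + strand) had 57 UMI in all, 20 of them in plasma cells, at 14.6 CPM (8.95 to 22.6). Nonclassical monocytes were next at 2.56 CPM, with a ratio of 5.72 (1.91 to 23.0). Clec2i shares 50-base runs with Clec2g (2.37% of the runs of Clec2g).

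Clec16a (chr16:10545339-10744878, + strand) carries the family's name, although its protein is an endolysosomal regulator of mitophagy and not a surface lectin. It was low and even, at 13.3 CPM in LSEC, 7.57 CPM in pDC, 6.76 CPM in NK/ILC1, 6.16 CPM in T and 6.07 CPM in B cells. Thinned to 1000 UMI a cell, LSEC and pDC changed places (log2 ratio -0.18). Clec11a, encoding a secreted bone growth factor, had 64 UMI and was highest in pDC at 2.84 CPM, followed by T cells at 1.64 CPM. The members with fewer UMI were Clec3b (26 UMI), Clec2l (13), Clec4b2 (8), Clec12b (8), Clec4a4 (3), Clec2h (2), Clec2e (1) and Clec18a (1). Of the 8 UMI of Clec4b2, 4 were in cDC1 and 4 in neutrophil-gated cells. Clec3a, a cartilage gene, gave no UMI in 10366 cells, which allows a share of cells with a UMI of up to 0.0289%.

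Neighbouring members often had different highest cell types. Chromosome 6 holds 21 of the 28 genes. From Clec4a1 to Clec4e 9 members follow each other with 0 other protein-coding genes between them, and their order of highest types ran from nonclassical monocytes (Clec4a1, Clec4a3) through Kupffer cells (Clec4b1), classical monocytes (Clec4a2) and Kupffer cells again (Clec4n) to neutrophil-gated cells (Clec4d, Clec4e), leaving out Clec4a4 and Clec4b2 with under 30 UMI. A second run of 5, Clec12a, Clec12b, Clec1b, Clec9a and Clec1a, likewise has no other protein-coding gene within it. There the highest types were Kupffer cells, Kupffer cells, cDC1 and LSEC, leaving out Clec12b. Clec9a and Clec1a, which lie 9 bases apart on opposite strands, had a UMI ratio of 0.101 (0.0824 to 0.123) in LSEC and 16.1 (9.98 to 27.5) in cDC1.

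The signalling partners were read from a list of 17 adaptor, kinase, phosphatase, receptor and ligand genes, which all had at least 30 UMI. Restricted to 1 type were 5 of the 17, against 12.3% of all genes: Klrb1a, Klrb1b, Klrb1f, Mmrn2 and Pdpn. The 17 were chosen by role, so the 2 shares do not compare like with like. Tyrobp was highest in neutrophil-gated cells at 5500 CPM and next in pDC at 3870 CPM, and Fcer1g was highest in nonclassical monocytes at 3005 CPM, with 2070 CPM in neutrophil-gated cells, 1965 CPM in Kupffer cells and 205 CPM in LSEC. Syk, the kinase these chains recruit, was at 867 CPM in B cells, 595 CPM in neutrophil-gated cells and 194 CPM in Kupffer cells. In LSEC, where Clec1b was at 303 CPM, Syk was at 22.6 CPM (19.3 to 26.4), and in T cells at 10.4 CPM. Card9, which links Syk to Bcl10 and Malt1, was highest in classical monocytes at 15.5 CPM, with 14.6 CPM in neutrophil-gated cells and no UMI in LSEC. Ptpn6, the phosphatase gene of the inhibitory receptors, was at 406 CPM in pDC, 354 CPM in nonclassical monocytes and 16.0 CPM in LSEC. Pdpn, the gene of the Clec1b ligand podoplanin, had 32 UMI in all and was highest in neutrophil-gated cells at 6.89 CPM. Its ratio over nonclassical monocytes, at 1.28 CPM, was 5.37 with a wide interval (1.26 to 48.2) that reaches below 4-fold. In basophil or mast cells 3 counts would be 18.4 CPM, above the neutrophil level.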

How the data were processed

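Single-cell RNA counts were taken from the deposited matrix, whose whole-number UMI counts carry no normalization by the authors, as seen from the values. Cell Ranger 2.1.1, STAR, Seurat 2.3.4 and mm10 are named, with no role, in the submitters' processing notes; per the file headers, software version 3.0.0 wrote the matrix. The criterion for calling cells is not known here; no empty droplets were used here to estimate free RNA. CPM, shares, ratios and intervals were computed in Python 3.11.15 with numpy 2.4.6, scipy 1.17.1 and pandas 2.3.3, and checked on simulated data. Of 11192 barcodes, 56 had under 200 genes and 778 over 10% mitochondrial UMI. Gates used 18 lists of 8 markers. No doublet caller was run; the marker lead, and a limit of 20000 UMI as an alternative, stood in for one. All 28 members are accounted for, with levels for those with at least 30 UMI and counts for the rest. Thinning left out cells under 1000 UMI, 52 of them Kupffer and 3 neutrophil. Members and lists were chosen with earlier results of these data known, and subsets of gates after the data were seen. Gene positions are from GENCODE (GRCm38, the same assembly as mm10) and promoters from RefSeq (GRCm38.p6), matched by symbol for 22 of 28 members.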

Additional observations from a re-analysis of the deposited data

How the results depend on the processing

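Across 9 alternatives, 23 of 24 recomputed counts stayed within 1.5 times the reported one. The exception was the count of members restricted to 1 type, which was 3 in place of 6 when gates allowed at most 1 marker of any other type. Clec10a and Clec2g lost their highest type to the minimum of 30 cells, and Clec4n fell below 4-fold. Of 147 levels in the highest type, 107 stayed inside the counting interval, 40 moved and 0 moved by over 1.5 times. Gates with at most 1 other marker gave no such levels for plasma, cDC1 and pDC, which fell below 30 cells. There Clec9a was at 103 CPM in cDC1 (4 UMI; 298 in the main gate) and Clec2g at 0 CPM in plasma. In pDC, Clec10a was at 323 CPM (203 in the main gate), Clec2i at 70.1 CPM and Clec11a at 0 CPM. Of 140 ratios of the highest over the next type, 117 stayed, 22 moved and 1 reversed: Clec16a in LSEC over pDC, log2 -0.18 with cells thinned to 1000 UMI. The cause was not tested. The ratio of Clec2i in pDC over B cells, which its interval did not separate, was log2 -0.40 with at most 5% mitochondrial UMI, a limit that left 554 B cells and 55 pDC. It was -0.03 with totals that left out haemoglobin, mitochondrial and ribosomal protein genes. Of 18 ratios between subsets, 17 stayed. That of Clec4d was log2 -2.57 when neutrophil-gated cells were split on Ltf alone. Limits of 20000 UMI per barcode and of 1 other marker raised the ratio of Clec1b to Clec4f in LSEC from 3.09 to 5.91 and 11.8, settings applied to it after the data were seen. No paired analysis was possible because the labels pair no samples and the files hold 1 matrix. Depth limits the rarer types: 3 counts are 18.4 CPM in basophil or mast cells and 0.268 CPM in B cells.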
